A study of Mus musculus with 4 samples.

Results

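Dermal papilla and nail mesenchyme, as selected here, were 1773 of the 93602 cells kept from 4 single-cell libraries of mouse digit tips (1.89%). A cell was a member when at least 1 unique molecular identifier (UMI, a tag on each captured transcript) was found for at least 3 of the fibroblast genes Pdgfra, Col1a1, Col1a2, Dcn and Lum and for at least 2 of the markers Rspo4, Wif1, Corin, Crabp1 and Alx4. It also had to hold fewer than 2 of the adventitial fibroblast genes Pi16, Dpp4 and Sema3c and fewer than 2 of the proliferation genes Mki67, Top2a and Cenpf. The fibroblast limit passed 23632 kept cells, the adventitial limit left 15253 of them and the proliferation limit left 14430. Of these 14430 cells, 10166 had none of the 5 markers, 2491 had 1, 1094 had 2, 523 had 3, 139 had 4 and 17 had all 5. The members were 571 cells with SAR131675, 402 with control diet, 432 with LNR and 368 with sham. The remaining 12657 cells of the same gate are called the other mesenchymal cells.

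The tissue was the hindlimb digit tip of female C57BL/6 mice (C57BL/6J in the study's methods) aged 6 to 8 weeks, with the digits 2 to 4 of 10 mice pooled in each library. By the study's methods, the distal tip of the terminal phalanx was cut on digits 2 and 4 of both hindlimbs. Digits 2 to 4 were collected for the cell suspensions by a cut at the proximal level of P2, the phalanx next to the terminal one. By these methods the pools would also hold tissue proximal to the tip. In 1 experiment, chow with SAR131675, an inhibitor of the lymphatic growth factor receptor VEGFR3, was given at 30 mg/kg and compared with a matched control diet. The design text gives 8 days on the diet, whereas the methods start it 5 days before amputation and keep it up throughout. In the other, lymph node removal (LNR) on a single extremity was compared with a sham control. The study describes the sham as the opposite limb, so both pools may come from the same mice. The labels give both controls as untreated, and they do not state the day after amputation on which the digits were taken. For the SAR131675 experiment, the study's text and a figure legend give different days. Each condition had 1 library, and the labels put each library in a batch of its own, so condition, library and batch cannot be told apart, and no p-value is given. Intervals at 95% are Clopper-Pearson for shares and exact Poisson for summed UMIs, and they cover counting error only. The experiments also differ in depth and in the Cell Ranger version of the file headers (8.0.1 for SAR131675 and control diet, 6.1.2 for LNR and sham). Differences in level between experiments cannot be told apart from these.

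The dermal papilla is a cluster of mesenchymal cells at the base of the hair follicle that sends growth and differentiation signals to the overlying epithelium and receives Wnt and hedgehog signals from it. The mesenchyme under the nail has a comparable place in the nail organ, and in digit tip regeneration nail epithelium and its mesenchyme are linked through Wnt signaling. R-spondins raise Wnt signaling in the cells they reach by keeping Wnt receptors at the surface, whereas Wif1, Dkk and Sfrp proteins bind Wnts or their receptors and hold the pathway down.

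The members were chosen by the detection of these genes, so the values of the 5 markers are a description. The 4 libraries are given throughout in the order SAR131675, control diet, LNR and sham. Wif1, a secreted Wnt inhibitor, was found in 84.2, 85.3, 89.6 and 89.4% of members, in 17.3, 13.9, 10.1 and 10.2% of the other mesenchymal cells and in 3.74, 2.86, 3.95 and 3.27% of epidermal cells. Epidermal cells stand here as a background, and whether some of them make these genes was not tested. They were chosen without any UMI of the 5 fibroblast genes, so their shares may lie below the level of free RNA. Crabp1, which binds retinoic acid in the cytoplasm, was found in 81.3, 83.8, 88.4 and 87.8% of members, 6.49, 6.45, 5.45 and 5.46% of the other mesenchymal cells and 1.27, 0.529, 0.704 and 0.463% of epidermal cells. Both were common in every library, and 1283 members (72.4%) held them together. Rspo4, the R-spondin whose loss in humans leaves the nails absent, was found in 32.4, 33.1, 25.9 and 27.2% of members and in 0.0489, 0.0252, 0.0180 and 0% of epidermal cells (0 of 6916 in sham, which allows a share of up to 0.0434%, taken as 3 counts of the total). Alx4, a homeobox factor of limb and skin mesenchyme, was found in 37.5, 26.4, 20.8 and 21.7% of members and in 0.0816, 0.0336, 0.0361 and 0.0434% of epidermal cells. Corin, a membrane protease that marks dermal papillae, was found in 29.2, 20.4, 8.33 and 12.8% of members and in 0.147, 0.126, 0.0902 and 0% of epidermal cells. Corin and Alx4 were found in the largest share of members with SAR131675, where cells were also deepest, and Rspo4 varied least in share among these 3. Median depth was 9588, 8547, 4886 and 4898 UMIs per member, 9101, 7664, 4091 and 4088 per other mesenchymal cell and 11397, 11767, 7984 and 7602 per epidermal cell.

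Members just inside the rule held exactly 2 of the markers, and cells just outside held exactly 1. Among those with exactly 2, Wif1 was found in 76.3, 78.2, 87.3 and 86.97%, Crabp1 in 70.3, 77.8, 86.03 and 85.8% and Rspo4 in 15.1, 15.9, 10.5 and 10.3%. Among those with exactly 1, Wif1 was found in 65.3, 60.8, 58.1 and 60.3%, Crabp1 in 24.4, 28.1, 31.4 and 32.4% and Rspo4 in 1.88, 2.18, 3.29 and 1.60%. Cells just outside were thus mostly Wif1 cells. Rspo4 was found together with Crabp1 in 502 members (28.3%), with Corin in 71 (4.00%) and with Alx4 in 72 (4.06%). It was found in 16.8, 14.6, 36.1 and 38.3% of Corin members and in 10.3, 10.4, 18.9 and 27.5% of Alx4 members. The rule asks for 2 of these genes in a cell, so their joint detection is set in part by the selection, and no direction is read from it. Corin and Alx4 were found together in 163 (9.19%).

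**Figure D1:**
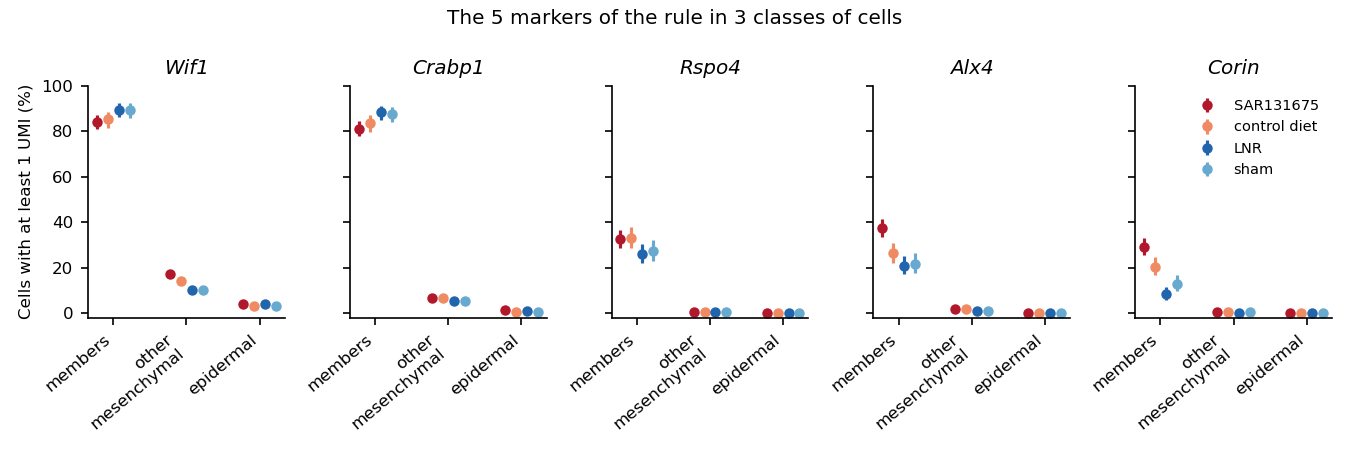
Share of cells with at least 1 UMI (y axis, %) of each of the 5 markers in members, other mesenchymal cells and epidermal cells, with 1 point per library and Clopper-Pearson 95% bars. Wif1 and Crabp1 were found in over 80% of members in each library, Rspo4, Alx4 and Corin in 8.33% to 37.5%, and all 5 in under 4% of epidermal cells.

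The deposited files held 113503 barcodes with 168507188 to 585284877 UMIs per library, and 20669 or fewer cells were kept in each library of the LNR experiment against 24030 or more in the SAR131675 experiment. The 2 libraries of an experiment shared 348 (SAR131675 and control diet) and 130 (LNR and sham) barcodes, and libraries of different experiments shared 0 to 3. Scrublet called 5.60, 1.99, 12.04 and 10.3% of members as doublets, and these were left in. Genes of the keratinocyte list summed to 1934, 1749, 6408 and 7091 counts scaled to the summed UMIs of the cells (CPM) in members and to 6205, 5216, 6985 and 8399 CPM in the other mesenchymal cells. All 11 genes of that list had UMIs in members of every library. The 7 immune genes summed to 35.8, 58.5, 219 and 382 CPM, the 6 endothelial genes to 20.1, 11.9, 47.8 and 97.6 CPM, and the 4 hemoglobin genes to 363, 184, 1035 and 1046 CPM in members. Summed RNA of these 4 classes was thus higher in members of the LNR experiment than in those of the SAR131675 experiment. The share of members with at least 2 genes of a class ran the other way for 2 of them. It was 95.4, 82.8, 62.3 and 65.2% for keratinocyte genes and 10.9, 15.2, 4.40 and 5.71% for hemoglobin genes. For immune and endothelial genes it was higher in the LNR experiment. The 6 Schwann cell genes summed to 41.2, 76.2, 14.9 and 21.8 CPM, lower in the LNR experiment.

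Levels in members were next compared with those in the other mesenchymal cells of the same library, to see whether the selected cells carried other genes of their label. Of 14726 genes with at least 100 UMIs, 447 (3.04%) were at least 2-fold higher in members in all 4 libraries and 330 (2.24%) at least 2-fold lower, with the 16 genes of the rule left out. The rule had used the same cells, so the contrast is a description without a test. With trimmed-mean (TMM) scaling in place of CPM, ratios fell by 0.14, 0.10, 0.18 and 0.27 on the log2 scale, and the counts became 356 higher and 425 lower. The median log2 ratio of all genes tested was 0.09, and 0.07 to 0.14 by library. Without cells with over 1% of their UMIs in genes of other classes, a setting chosen after seeing the data, the counts were 489 higher and 310 lower. Without cells that held at least 2 markers of another class, which left 359 members, they were 192 and 139.

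Of 20 dermal papilla genes, 11 were at least 2-fold higher in members in all 4 libraries and none lower (median log2 ratio 1.68). Lef1 and Prom1 lost this under TMM scaling. Sox2, a transcription factor of guard hair papillae, was at 45.3, 24.4, 12.3 and 6.86 CPM in members and 4.03, 3.05, 0.594 and 0.683 CPM in the other mesenchymal cells (log2 3.00 to 4.34). Sox18, a factor of papilla and endothelium, was at 51.4, 28.00, 14.9 and 19.8 CPM against 3.79, 1.52, 3.65 and 3.69 CPM (log2 2.04 to 4.18). Lef1, the Wnt effector of the papilla, was at 167, 122, 21.9 and 10.1 CPM against 9.99, 5.92, 2.80 and 4.37 CPM (log2 1.23 to 4.36). All 3 were higher in members in each library, with members of the SAR131675 experiment above those of the LNR experiment. The growth factor Fgf10 was at 189, 149, 59.7 and 35.5 CPM against 27.1, 36.6, 16.4 and 12.3 CPM (log2 1.53 to 2.81). Hhip, a hedgehog antagonist, was at 389.8, 189, 57.1 and 34.7 CPM against 44.8, 49.9, 26.5 and 23.6 CPM (log2 0.56 to 3.12) and missed the limit in sham alone. Alpl, alkaline phosphatase, the classical papilla stain, was at 77.6, 35.8, 32.5 and 59.7 CPM against 95.8, 101, 77.1 and 67.7 CPM and was below the other mesenchymal cells in all 4 libraries (log2 -1.49 to -0.18). Of the 20 papilla genes, 11 were thus at least 2-fold higher in members, and Alpl was lower. Alpl is also 1 of the 10 osteoblast genes. These summed to 567, 269, 893 and 460 CPM in members and 2435, 1568, 2002 and 1631 CPM in the other mesenchymal cells. The Alpl ratio therefore cannot decide for or against the label.

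The 15 genes of the nail and distal digit gave a smaller contrast. Lmx1b, Msx2, Tbx4 and Wnt5a were at least 2-fold higher and Gdf5 at least 2-fold lower in all 4 libraries, and the list's median was 0.21. Msx2 and Tbx4 lost this under TMM scaling. Lmx1b, a factor for dorsal limb identity whose loss causes nail-patella syndrome, was at 57.3, 70.4, 23.9 and 25.8 CPM in members and 17.4, 20.3, 4.20 and 4.46 CPM in the other mesenchymal cells (log2 1.72 to 2.54). Tbx4, a hindlimb identity factor, was at 141, 109, 53.4 and 46.8 CPM against 22.8, 29.6, 22.1 and 20.2 CPM (log2 1.22 to 2.63). Msx1, which marks regenerating digit tip mesenchyme, was at 43.2, 26.9, 130.1 and 204 CPM against 109.7, 114, 116 and 111 CPM. Msx1 was thus lower in members than in the other mesenchymal cells in both libraries of the SAR131675 experiment and higher in both of the LNR experiment (log2 -1.34, -2.08, 0.16 and 0.88). The distal Hox genes Hoxa13 (55.6, 49.6, 32.2 and 28.6 CPM) and Hoxd13 (100.1, 111, 79.7 and 58.5 CPM) were close to the other mesenchymal cells, with log2 ratios of -0.01 to 0.24 and -0.07 to 0.51. Gdf5, a joint factor, had 1, 0, 0 and 0 UMIs in members against 67, 45, 40 and 52. Dissociated cells carry no position, so members from under the nail and members from hair follicles cannot be told apart by place.

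Target genes of Wnt signaling were higher in members. Axin2, Lef1, Tcf7, Nkd1, Nkd2, Sp5 and Apcdd1 were at least 2-fold higher in all 4 libraries, 7 of 10 targets tested, with a list median of 2.44. Lef1 alone of the 7 lost this under TMM scaling. Axin2, a feedback inhibitor and general Wnt reporter, was at 78.1, 83.7, 58.7 and 50.4 CPM in members and 13.7, 19.4, 13.2 and 13.3 CPM in the other mesenchymal cells (log2 1.93 to 2.51). Nkd2, an inhibitor of Dishevelled, was at 215, 334, 177 and 162 CPM against 26.5, 40.4, 24.4 and 24.8 CPM (log2 2.71 to 3.05). Apcdd1, a membrane Wnt inhibitor of the hair follicle, was at 312, 350.1, 279 and 221 CPM against 37.3, 44.2, 31.8 and 28.1 CPM (log2 2.98 to 3.13). These 3 differed little between libraries, in contrast to Lef1. Znrf3 at 90.5, 101, 13.9 and 12.5 CPM and Lgr5 at 39.1, 62.1, 19.9 and 22.6 CPM were close to the other mesenchymal cells (log2 0.01 to 0.38 and -0.09 to 0.76).

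Among 10 Wnt ligands and R-spondins tested, Rspo1, Rspo3, Wnt5a and Wnt11 were at least 2-fold higher and Wnt2 lower, with a list median of -0.52. Wnt11 lost this under TMM scaling, and Wnt10b then passed the limit as lower. Rspo3 was at 753, 510.3, 293 and 307 CPM in members and 41.6, 35.7, 34.7 and 26.5 CPM in the other mesenchymal cells (log2 3.08 to 4.18). Rspo1 was at 110.1, 105, 73.7 and 54.4 CPM against 6.57, 6.56, 5.56 and 3.92 CPM (log2 3.73 to 4.06). Wnt5a, the noncanonical Wnt of limb outgrowth, was at 549, 483, 399.6 and 386 CPM against 61.2, 69.8, 77.96 and 69.3 CPM (log2 2.36 to 3.16). Rspo2, by contrast, was low in both, at 4.89, 5.82, 1.99 and 6.05 CPM against 9.99, 7.32, 7.35 and 5.56 CPM (log2 -1.01, -0.30, -1.77 and 0.16). Some secreted Wnt inhibitors were higher in the same cells. Dkk2, Sfrp2, Frzb and Notum were at least 2-fold higher and Sfrp5 lower among 10 antagonists tested (list median 1.09). Dkk2 was at 745, 879, 609 and 570.2 CPM against 126, 164, 133 and 134 CPM (log2 2.09 to 2.57). Notum, an enzyme that removes the lipid of Wnts, was at 24.8, 23.01, 32.2 and 13.7 CPM against 3.98, 3.22, 4.76 and 3.33 CPM (log2 2.05 to 2.83). Sfrp2 was at 454, 112, 441 and 1141 CPM against 31.97, 19.7, 73.1 and 52.6 CPM (log2 2.50 to 4.44), and its level in members varied most between libraries of these 4. Sfrp4, listed with them, was below the other mesenchymal cells in each library, at 22.9, 5.54, 40.5 and 39.1 CPM against 88.6, 97.97, 92.5 and 58.1 CPM.

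Among 9 BMP ligands tested, Bmp4, Bmp7 and Gdf6 were at least 2-fold higher and Gdf10 and Gdf5 lower (list median 0.54). Bmp4, a signal of the papilla to hair and nail matrix cells, was at 207, 293, 362 and 283 CPM in members and 34.7, 60, 77.8 and 76.5 CPM in the other mesenchymal cells (log2 1.89 to 2.58). Bmp7 was at 126, 119, 94.3 and 72.2 CPM against 13.7, 13.01, 10.7 and 10.98 CPM (log2 2.72 to 3.20). Gdf10 was at 84.9, 48.5, 47.1 and 41.5 CPM against 184, 185, 196 and 157 CPM (log2 -2.05 to -1.11). Bmp2 was close to the other mesenchymal cells (log2 -0.56 to 0.45). Of 9 antagonists, Grem1 and Fst were higher and Chrdl1 lower. Fst, an activin and BMP antagonist, was at 332, 161, 226 and 266 CPM against 74.03, 58.01, 86.3 and 68.2 CPM (log2 1.39 to 2.16). Of 9 BMP target genes, Msx2 alone was at least 2-fold higher in all 4 libraries and lost this under TMM scaling. Id1, Id2 and Id3 had log2 ratios of 0.95 to 1.08, 0.33 to 0.54 and 0.10 to 0.48. In the FGF list, Fgf10, Fgf2 and the feedback inhibitor Spry1 were higher among 13 tested, of which Fgf2 lost this under TMM scaling. The receptor Fgfr1 had log2 ratios of 0.79 to 1.38. No gene of 7 in the hedgehog list passed the limit in all 4 libraries, with a list median of 0.90. Ptch1, the hedgehog receptor and target, was at 267, 267, 70.03 and 54.8 CPM against 76.5, 83.4, 35.2 and 36.1 CPM (log2 0.61 to 1.81). In the retinoid list, Crabp2 and the retinoic acid-degrading enzyme Cyp26b1 were higher and Rbp4 and Aldh1a3 lower among 12 tested. Cyp26b1 was at 329, 501, 389 and 313 CPM against 64.6, 92.2, 82.5 and 68.6 CPM (log2 2.19 to 2.44).

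Some signals to pigment cells and nerves were also higher in members. Asip, the agouti protein that turns melanocytes of hair follicles from black to yellow pigment, was at 563, 351, 395 and 298 CPM in members and 24.3, 18.2, 12.4 and 8.52 CPM in the other mesenchymal cells (log2 4.27 to 5.13), with UMIs in 345, 225, 194 and 162 members. Whether this RNA gives a working agouti protein in these C57BL/6 mice was not tested. Edn3, a growth factor of melanocytes, was at 54.2, 54.9, 19.9 and 20.2 CPM against 1.48, 1.82, 2.46 and 2.19 CPM (log2 3.02 to 5.17). Kitl, the ligand of the Kit receptor, was not higher, with log2 ratios of -0.04 to 0.61. Of the 5 melanocyte genes, 2 were at 0 UMIs in the members of each library of the SAR131675 experiment and 3 in those of each library of the LNR experiment. Of 10 genes for nerve growth and guidance tested, Gdnf, Nrg2, Sema3a and Slit2 were at least 2-fold higher and none lower (list median 0.86). Nrg2 was at 101, 79.8, 59.1 and 47.2 CPM against 9.30, 8.44, 6.54 and 5.92 CPM (log2 2.99 to 3.44). Sema3a, a repellent of growing axons, was at 463, 887, 132 and 155 CPM against 182, 211, 39.1 and 43.7 CPM (log2 1.35 to 2.07).

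The IGF-binding proteins Igfbp2 and Igfbp3 and the growth factor Igf2 were at least 2-fold higher among 9 IGF genes tested. Igfbp3 was at 503, 554, 991 and 629 CPM in members and 36.2, 28.9, 46.2 and 33.99 CPM in the other mesenchymal cells (log2 3.80 to 4.42). Igfbp2 was at 975, 695, 745 and 557 CPM against 110.3, 94.98, 88.4 and 89.8 CPM (log2 2.63 to 3.14). In the collagen and matrix list, 6 of 25 were higher (Col7a1, Col12a1, Col13a1, Col23a1, Tnn and Vcan) and Fn1 was lower, with a list median of 0.73. Col23a1, a membrane-spanning collagen, was at 860.0, 592, 192 and 171 CPM against 41.6, 40.8, 17.7 and 14.9 CPM (log2 3.43 to 4.37). Col7a1, the collagen of anchoring fibrils, was at 56.1, 76.2, 74.3 and 61.3 CPM against 18.6, 15.4, 17.2 and 15.4 CPM (log2 1.59 to 2.31). Fn1, fibronectin, was at 625, 864, 929 and 835 CPM against 2855, 2803, 2391 and 2222 CPM (log2 -2.19 to -1.36). Genes of the upper, papillary dermis were higher for 5 of 10 and lower for Ntn4, with a list median of 1.40. These 5 (Apcdd1, Axin2, Col13a1, Col23a1 and Col7a1) stand in other lists as well. Genes of the lower, reticular dermis were lower for 3 of 8 (Fn1, Gsn and Clec3b) and higher for none, with a list median of -0.86.

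Markers of the joint lining stood furthest below. All 5 synovial genes were at least 2-fold lower in members in all 4 libraries (list median -3.49). Prg4, lubricin of joint fluid, was at 499, 1846, 4682 and 2165 CPM in members and 33085, 32666, 26120.3 and 28758 CPM in the other mesenchymal cells (log2 -6.05 to -2.48). Htra4 was at 2.97, 11.4, 73.4 and 40.7 CPM against 914, 826, 612 and 626 CPM (log2 -8.22 to -3.06). Members of the LNR experiment held more of both than those of the SAR131675 experiment, and the 5 genes summed to 558, 1959, 4939 and 2337 CPM in members. Of 10 osteoblast genes, Bglap, Bglap2 and Ibsp were lower and none higher (list median -1.53, or -1.17 with libraries at 0 UMIs set to the floor of 3 counts). The tendon genes Tnmd and Thbs4 were higher among 7 tested, Tnmd at 359, 289, 198 and 219 CPM against 70.4, 74.1, 62.9 and 55.3 CPM (log2 1.66 to 2.35) and Thbs4 at 450.1, 557, 506 and 394 CPM against 65.1, 118, 165 and 156 CPM (log2 1.33 to 2.79), and Comp was lower (log2 -2.99 to -1.82). The cartilage proteoglycan Acan was higher, at 119, 95.1, 83.3 and 42.7 CPM against 46.5, 44.4, 25.7 and 15.9 CPM (log2 1.10 to 1.70), and lost this under TMM scaling. Pericyte and smooth muscle genes were lower for 2 of 6 each (Rgs5 and Abcc9, Cnn1 and Lmod1). Keratinocyte, endothelial, immune, Schwann cell and hemoglobin genes had none past the limit in all 4 libraries, with list medians of -0.84, -0.99, -0.22, -1.30 (-0.91 with libraries at 0 UMIs set to the floor) and 0.06. Krt14 had log2 ratios of -1.36, -1.496, -0.22 and -0.06, more than 2-fold lower in the SAR131675 experiment and near 0 in the LNR experiment.

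Some chemokines were lower in members. Of 16 chemokine and cytokine genes, Cxcl1, Cxcl10 and Cxcl12 were at least 2-fold lower and none higher (list median -0.34, or -0.12 with libraries at 0 UMIs set to the floor). Cxcl12, which holds leukocytes and stem cells near stroma, was at 146, 235, 229 and 237 CPM in members and 846, 798, 1091 and 1002 CPM in the other mesenchymal cells (log2 -2.54 to -1.76). Cxcl1, a neutrophil attractant, was at 35.5, 39.6, 122 and 77.03 CPM against 162, 194, 352 and 346 CPM (log2 -2.29 to -1.53). Il6 was not among these 16 but in a list of 8 osteoclast regulators, of which Il6 alone was lower and Sema3a alone higher (list median -0.12). Il6 was at 4.89, 4.16, 19.9 and 14.5 CPM against 40.1, 25.8, 61.6 and 57.6 CPM (log2 -3.01 to -1.62). Tnfsf11, the osteoclast factor RANKL, was low in both, at 1.57, 1.11, 7.97 and 10.9 CPM against 5.14, 6.33, 14.7 and 7.52 CPM, and its soluble decoy Tnfrsf11b was at 25.2, 11.6, 24.9 and 25 CPM against 38.2, 31.1, 17.5 and 18.4 CPM. Of 13 lymphangiogenic genes tested, Ccbe1, a secreted cofactor that activates VEGF-C, was at least 2-fold higher in all 4 libraries, at 172, 311, 47.5 and 54.4 CPM against 30.3, 42.5, 9.85 and 8.02 CPM (log2 2.27 to 2.87). Vegfc, the ligand of VEGFR3, was at 69.7, 101, 29.2 and 33.9 CPM against 32.4, 53.1, 11.8 and 12.3 CPM (log2 0.93 to 1.46) and missed the limit with control diet alone. Flt4, which encodes VEGFR3, had 4, 2, 1 and 5 UMIs in all members of the 4 libraries. Hypoxia and glycolysis genes had none of 9 past the limit, and of 10 immediate early genes Atf3 alone was lower.

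By the weakest of the 4 ratios, the genes with the largest excess in members included Gpc5, Slc26a7, Gm14033, Myl10, Shisa9, Gm14226, Asip, Tmem132e, Soga3, Mstn and Igfbp3. Gpc5, a cell surface proteoglycan, was at 445, 329, 8.96 and 4.84 CPM in members and 3.01, 3.22, 0.0425 and 0.137 CPM in the other mesenchymal cells, with UMIs in 135, 67, 17 and 11 members. Its level was high in both libraries of the SAR131675 experiment and low in both of the LNR experiment. This split runs along the Cell Ranger version and the depth, and its cause was not tested. Slc26a7, an anion transporter, was at 93.8, 33.5, 66.7 and 50.4 CPM against 1.80, 0.937, 1.10 and 1.73 CPM (log2 4.85 to 5.89). Mstn, myostatin, was at 59.2, 92.03, 67.04 and 34.7 CPM against 0.787, 0.996, 3.86 and 1.55 CPM (log2 4.11 to 6.49). Myl10 was found in 38, 18, 17 and 12 members, at 9.96, 5.27, 10.6 and 8.47 CPM against 0.231, 0.117, 0.255 and 0.319 CPM. Tmem132e had 53 UMIs against 0 with control diet, at least 83.6-fold higher, and Shisa9 had 5 against 0 in sham, at least 14.8-fold higher. Gm14226 (40.5, 17.5, 2.32 and 3.63 CPM), Soga3 (16.6, 9.15, 3.98 and 2.82 CPM) and Gm14033 (23.4, 6.65, 1.66 and 1.21 CPM) were lower in members of the LNR experiment than in those of the SAR131675 experiment.

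The 12 genes with the largest deficit were S100g, Itih2, Lypd2, Gdf5, Inmt, Tmem196, Chrdl2, Htra4, Ifi205, Ebf2, Mdfic2 and Flg. S100g, a calcium-binding protein, had 0, 0, 0 and 1 UMIs in members against 206, 45, 261 and 344, at least 18.2-fold, 3.17-fold and 11.1-fold lower in the 3 libraries at 0. Inmt, a methyltransferase, was at 8.39, 13.9, 3.32 and 8.07 CPM against 87.1, 133, 101 and 92.8 CPM (log2 -4.85 to -3.25). Ebf2, a transcription factor, was at 16.9, 11.1, 3.65 and 4.84 CPM against 139, 154, 43.9 and 43.3 CPM (log2 -3.78 to -3.03). Lypd2 had no UMI in members against 54, 40, 61 and 47 UMIs, at least 4.77-fold, 2.82-fold, 2.60-fold and 1.77-fold lower. Flg, the epidermal filaggrin, was at 16.9, 26.6, 2.99 and 16.9 CPM against 356, 309, 54.4 and 133 CPM, and Itih2 at 1.57, 1.66, 1.33 and 0.807 CPM against 28.9, 31.8, 20.1 and 18.7 CPM. Mdfic2 was at 8.56, 2.77, 2.32 and 3.23 CPM against 127, 89.1, 29.00 and 27.1 CPM, Ifi205 at 2.80, 1.39, 0.996 and 1.61 CPM against 23.9, 48.7, 25.6 and 26.1 CPM and Tmem196 at 0.349, 4.71, 1.33 and 0 CPM against 50.9, 43.7, 18.8 and 24.01 CPM. Chrdl2 had 4, 0, 0 and 0 UMIs against 149, 67, 56 and 49. Ratios of genes at 0 UMIs in a library rest on the 0.5 UMI added to each sum.

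**Figure D2:**
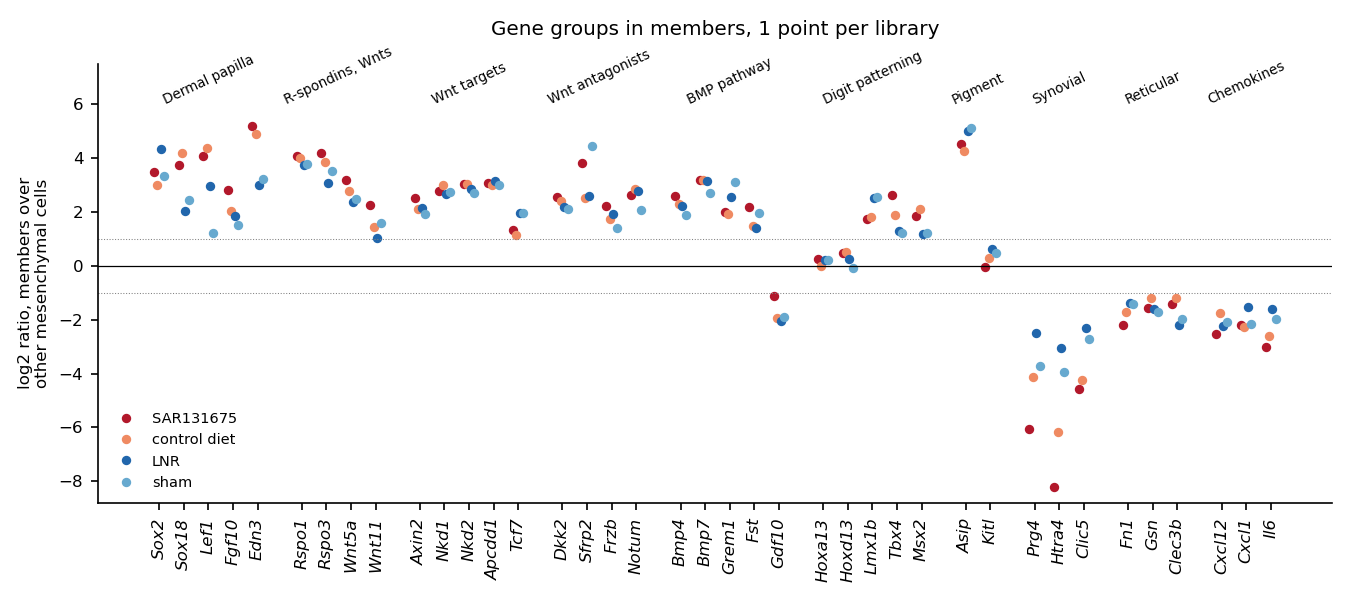
Log2 ratio of CPM in members over the other mesenchymal cells (y axis) for genes of 10 groups, with 1 point per library and dotted lines at 2-fold. The Wnt targets Axin2, Nkd1, Nkd2 and Apcdd1 lie close together at 1.93 to 3.13 in the 4 libraries, whereas the synovial genes lie below -2 and Hoxa13 and Hoxd13 lie near 0.

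Members were then split by Rspo4 and by Corin or Alx4. The split was chosen after the data had been seen, and the 3 markers are not reported as differences. Members with Rspo4 but without Corin or Alx4 were 148, 114, 87 and 70 cells, or 25.9, 28.4, 20.1 and 19.0% of members. Members with Corin or Alx4 but without Rspo4 were 251, 132, 87 and 78 cells, or 44.0, 32.8, 20.1 and 21.2%. Both kinds of marker were found in 37, 19, 25 and 30 cells, and the remaining 135, 137, 233 and 190 cells held Wif1 and Crabp1 alone. After every cell had been thinned to 3000 UMIs, the Rspo4 share was 27.9, 20.9, 18.9 and 23.4% and the Corin or Alx4 share 27.6, 18.4, 16.1 and 20% of the remaining members. The Corin or Alx4 cells were the deeper of the 2 kinds, with median UMIs of 10630, 9660, 7117 and 5728 against 9219, 8963, 4169 and 4373.

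Of 9246 genes tested, 183 (1.98%) were at least 2-fold higher with Rspo4 in all 4 libraries and 170 (1.84%) with Corin or Alx4, and the median log2 ratio of all genes was -0.06. After thinning to 3000 UMIs per cell these counts were 41 and 35. Coch, cochlin, a secreted matrix protein, was at 2104, 1715, 1309 and 1087 CPM with Rspo4 and at 12.8, 56.5, 17.4 and 15.1 CPM with Corin or Alx4 (log2 4.92 to 7.34). Thbs4, a tendon matrix protein, was at 1258, 1089, 945 and 811 CPM against 65.5, 119.6, 92.8 and 75.7 CPM (log2 3.18 to 4.26). The collagen-binding Fmod was at 1232, 595, 1032 and 759 CPM against 107, 16.9, 157 and 104 CPM (log2 2.72 to 5.11). In each library these 3 genes were higher with Rspo4 than with Corin or Alx4. Thbs4 and Fmod were the 2 of 6 tendon genes tested that were past the limit, both with Rspo4 (list median 2.34). Of 8 retinoid genes tested, Aldh1a2 and Cyp26b1 were at least 2-fold higher with Rspo4 and Crabp2 with Corin or Alx4 (list median -0.09). Aldh1a2, which makes retinoic acid, was at 341, 268, 143 and 103 CPM against 16.7, 44.7, 20.9 and 20.2 CPM (log2 2.32 to 4.34), Adh1 at 368, 345, 265 and 281 CPM against 22.4, 54.3, 20.9 and 45.4 CPM (log2 2.61 to 4.03) and Adh7 at 402, 436, 351 and 340.1 CPM against 62.6, 79.96, 61.5 and 63.97 CPM (log2 2.40 to 2.68). Cyp26b1, which degrades retinoic acid, was also higher with Rspo4, at 587, 728, 659.6 and 599 CPM against 189.7, 243, 177 and 175 CPM (log2 1.58 to 1.89), while Crabp2 was lower, at 48.00, 26.01, 51.7 and 73.9 CPM against 207, 146, 195 and 185 CPM (log2 -2.47 to -1.31). Abca8b, Ccn5, Ahrr, Tnfrsf21, Scg3 and Ostn completed the 12, with Ccn5 at 215, 206, 145 and 199.6 CPM against 26.3, 24.2, 24.4 and 31.98 CPM (log2 2.55 to 3.07).

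Of 8 lymphangiogenic genes tested, Vegfc, Vegfd and Ccbe1 were at least 2-fold higher with Rspo4 and none with Corin or Alx4 (list median 0.43). Vegfc was at 104, 139, 39.3 and 56.7 CPM with Rspo4 and 41.3, 45.5, 12.8 and 8.42 CPM with Corin or Alx4 (log2 1.34 to 2.64). Vegfd, a further VEGFR3 ligand, was at 46.6, 48.2, 35.1 and 39.4 CPM against 12.8, 13.9, 8.12 and 15.1 CPM (log2 1.35 to 2.06). Ccbe1 was at 433, 499.9, 99.2 and 73.9 CPM against 20.6, 77.02, 9.28 and 23.6 CPM (log2 1.62 to 4.38). All 3 ran the same way in each library, but the lower values with LNR and sham rest on few UMIs. In Corin or Alx4 members with LNR, 17.4 CPM stands for 15 UMIs, and all 3 genes lay below that level. With sham, 15.1 CPM, the level of Vegfd, stands for 9 UMIs, and Vegfc lay below it. Kitl was at 211, 203, 101 and 73.9 CPM against 48.05, 36.7, 16.2 and 15.1 CPM (log2 2.13 to 2.61), whereas Asip was higher with Corin or Alx4, at 108, 72.2, 119.9 and 222 CPM against 842, 636, 665 and 502 CPM (log2 -3.13 to -1.17). Of 9 genes for nerve growth and guidance tested, Sema3a alone was past the limit. It was at 949, 1323, 225 and 340.1 CPM against 171, 411, 48.7 and 80.8 CPM (log2 1.69 to 2.47). Il34, a ligand of the CSF1 receptor of macrophages and osteoclast precursors, was at 51.5, 47.2, 31.01 and 39.4 CPM against 13.9, 22.01, 6.96 and 13.5 CPM (log2 1.09 to 2.09). Among 7 reticular genes tested, 5 (Mfap5, Ly6a, Cd34, Gsn and Clec3b), and among 25 matrix genes, 4 (Col14a1, Fbln1, Eln and Thbs2) were higher with Rspo4, as for Cd34 at 311, 328, 370.1 and 310.5 CPM against 47.3, 68.2, 46.4 and 101 CPM (log2 1.61 to 2.98).

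The classical papilla genes stood on the other side. Of 19 papilla genes tested, 8 were at least 2-fold higher with Corin or Alx4 and none with Rspo4 (list median -1.31). Sox2 had 0, 3, 0 and 0 UMIs with Rspo4 and 207, 78, 26 and 12 UMIs with Corin or Alx4, or 73.7, 57.2, 30.2 and 20.2 CPM in the latter. Sox18 had 2, 0, 1 and 0 UMIs against 261, 95, 35 and 37. Both were at 3 UMIs or fewer with Rspo4 in every library. Lef1 was at 9.88, 4.82, 4.14 and 0 CPM with Rspo4 and 251, 259, 37.1 and 21.9 CPM with Corin or Alx4. Rspo3 was at 239, 230.2, 159 and 207 CPM against 1098, 858, 354 and 555 CPM (log2 -2.20 to -1.14). Hhip was at 1.41, 2.89, 20.7 and 9.86 CPM against 509.7, 310.3, 70.7 and 60.6 CPM. Other papilla genes were not split in this way. Bmp4 was at 254, 344, 287 and 259 CPM against 183, 203, 343 and 291 CPM (log2 -0.25 to 0.76), Vcan had log2 ratios of -0.22 to 0.49, and Edn3 tended to the Rspo4 side, at 94.6, 78.99, 37.2 and 44.4 CPM against 29.9, 43.3, 15.1 and 6.73 CPM. Hedgehog response genes followed the papilla genes, with 5 of 7 at least 2-fold higher with Corin or Alx4 and none with Rspo4 (list median -3.04). Ptch1 was at 21.9, 24.1, 20.7 and 17.2 CPM with Rspo4 and 487, 605, 143 and 167 CPM with Corin or Alx4 (log2 -4.62 to -2.72). Gli2 was at 71.3, 38.5, 4.14 and 4.93 CPM against 247, 252, 34.8 and 26.9 CPM.

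Wnt targets did not follow a single side. Axin2 was higher with Rspo4, at 120.0, 122, 68.2 and 91.2 CPM against 46.3, 44.7, 32.5 and 37.03 CPM (log2 1.07 to 1.44), Lef1 was higher with Corin or Alx4, and the other 6 of 8 tested were not past the limit in all 4 libraries (list median 0.24). Of the antagonists, Dkk2 was higher with Rspo4, at 1212, 1229, 916 and 996 CPM against 411, 456, 355 and 446 CPM (log2 1.16 to 1.56), and Frzb with Corin or Alx4, at 1.41, 0.963, 2.07 and 2.46 CPM against 54.8, 55.02, 40.6 and 18.5 CPM. The BMP antagonist Grem1 was higher with Rspo4, and Bambi and the ligand Gdf10 with Corin or Alx4. Gdf10 was at 30.4, 27.9, 8.27 and 9.86 CPM against 115, 74.1, 76.5 and 45.4 CPM. No gene of 10 tested in the nail and distal digit list was past the limit (list median 0.23), as for Lmx1b at 40.9, 64.5, 31.01 and 39.4 CPM against 64.1, 55.7, 17.4 and 23.6 CPM.

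Some contractile, cartilage and bone genes were also higher in the Corin or Alx4 members, in part through single cells. In LNR, 1 member held 66.9% of the Ibsp UMIs and 1 held 39.2% of the Cytl1 UMIs of all members. Acta2, actin of smooth muscle and of the dermal sheath around the follicle, was at 28.2, 13.5, 88.9 and 36.96 CPM with Rspo4 and 840.0, 739, 430.3 and 604 CPM with Corin or Alx4 (log2 -5.73 to -2.26), and of 6 dermal sheath genes Acta2, Tagln, Myl9 and Mylk were at least 2-fold higher on this side. Acan was at 1.41, 0.963, 4.14 and 7.39 CPM against 207, 244, 227 and 145 CPM, and Snorc, a further cartilage proteoglycan, had no UMI with Rspo4 against 103, 112, 288 and 63. Col10a1, the collagen of hypertrophic cartilage, had 0, 0, 0 and 1 UMIs against 403, 239, 171 and 37, and Cytl1 had 2, 0, 2 and 1 against 1178, 885, 855 and 51. Ibsp, bone sialoprotein, was at 0, 3.85, 2.07 and 2.46 CPM against 7.12, 72.6, 755 and 45.4 CPM. With SAR131675, all members held 1489 Ibsp UMIs, of which 20 stood in Corin or Alx4 members and 0 in Rspo4 members. Most Ibsp RNA of that library thus stood in neither kind. All 4 osteoblast genes tested and 3 of 4 cartilage genes were at least 2-fold higher with Corin or Alx4, with list medians of -3.12 and -5.69 (-2.47 and -3.53 with libraries at 0 UMIs set to the floor). Igf1, at 136, 206, 122 and 123 CPM against 675, 668, 411 and 329.9 CPM (log2 -2.31 to -1.41), Igfbp3, at 140.5, 95.4, 215 and 93.6 CPM against 618, 833, 1997 and 1355 CPM (log2 -3.84 to -2.13), and Igfbp4 were on the same side, and Igfbp6 was on the Rspo4 side (log2 1.79 to 3.12). Rasd1, Actg2, Tnnt1, Scube3 and Fbn2 completed the 12 leading genes, with Fbn2, fibrillin 2, at 17.6, 7.71, 6.203 and 2.46 CPM against 237, 229, 97.4 and 106 CPM. Keratinocyte genes had none of 10 past the limit between the 2 kinds of member (list median 0.28). Without the LNR or the sham library, the count higher with Corin or Alx4 grew from 170 to 259 or 265.

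**Figure D3:**
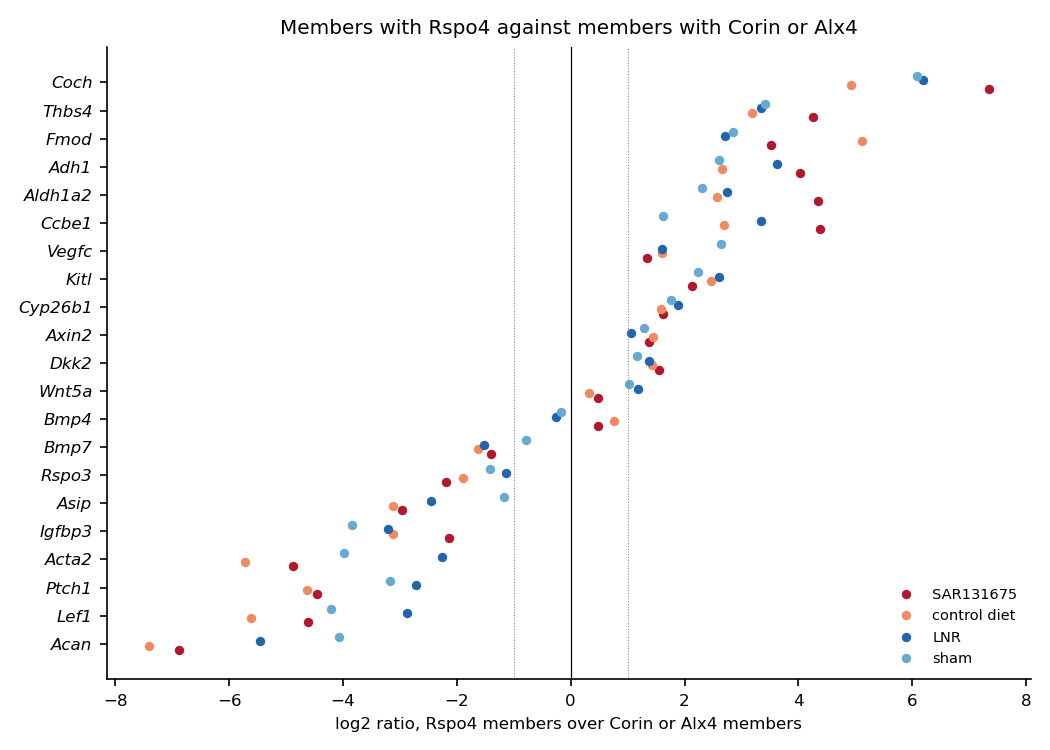
Log2 ratio of CPM in members with Rspo4 over members with Corin or Alx4 (x axis) for 21 genes, with 1 point per library and dotted lines at 2-fold. Coch, Thbs4, Aldh1a2, Ccbe1 and Kitl lie to the right in all 4 libraries, Rspo3, Ptch1, Lef1 and Acan to the left, and Bmp4 near 0.

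Members were also clustered without the 16 genes of the rule. Together, the 4 libraries gave 13 clusters, of which 8 drew over 90% of their cells from 1 experiment, so each experiment was clustered apart. Leading genes only identify a cluster and are not findings. The SAR131675 experiment gave 9 clusters and the LNR experiment 10. The cluster led by Ednrb, Acta2, Tagln, Kcnn2 and Lrrc15 held 114 cells of the SAR131675 experiment, with Alx4 found in 84.2% and Crabp1 in 6.14%. A cluster of the LNR experiment led by Lrrc15, Ednrb, Fbn2, Acta2 and Nid2 held 59 cells, with Alx4 in 89.8% and Crabp1 in 6.78%. Wif1 was found in 93.0% and 98.3% of these cells. The cluster led by Lingo2, Kcnd2, Hhip, Nrg3 and Adgrb3 (122 cells) had Corin in 72.1% and Alx4 in 81.97%. Those led by Aldh1a2, Lin7a, Kirrel3, Cpm and Inhbb (123 cells) and by Coch, Ogn, Meis2, Fmod and Kera (29 cells) had Rspo4 in 80.5% and 75.9%. In the LNR experiment, the cluster led by Coch, Hsd11b1, Tnmd, Fmod and Kera (14 cells) had Rspo4 in 92.9%. Clusters led by Igfbp3, Slc26a7, Fstl4, Rasd1 and Gpc5 (185 cells) and by Slc26a7, Igfbp3, Hhip, Prlr and Rasd1 (95 cells) were found in the respective experiments, as were clusters led by Il1r2, Ccl11, Cfb, C3 and Angptl1 (141 cells) and by C3, Ccl11, Il1r2, Ccl19 and Angptl1 (159 cells).

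Other clusters were led by genes that go against the label. Genes of keratinocytes led a cluster in each experiment (Krt15, Ly6d, Perp, Col17a1 and Mt4 in 55 cells, and Cst6, Krt2, Krt17, Defb6 and Mt4 in 119 cells). Joint, cartilage and bone genes led clusters of 95 cells (Cytl1, Prg4, Ibsp, Chad and Comp) and 56 cells (Snorc, Cytl1, Prg4, Col10a1 and Bglap). Immune and vascular genes led clusters of 76 cells (Cxcl2, Cd74, Lyz2, Ccl4 and H2-Eb1) and 12 cells (Fabp4, Ngp, Camp, Pecam1 and S100a8) of the LNR experiment. The rest were led by Egfem1, Cadps, Chrm2, Adarb2 and F13a1 (109 cells), by Pla2g7, F13a1, Mme, Aldh1a2 and Foxd1 (130 cells) and by Mmp3, Cxcl5, Spp1, Timp1 and Il1rl1 (80 cells). No cluster was given a cell type name.

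The share of members was next compared within each experiment. Members were 1.96% (95% interval 1.81 to 2.13) of kept cells with SAR131675 and 1.67% (1.51 to 1.84) with control diet, a log2 ratio of 0.23 (0.05 to 0.41). With LNR they were 2.18% (1.98 to 2.39) and with sham 1.78% (1.60 to 1.97), a log2 ratio of 0.29 (0.09 to 0.49). Both treated libraries were thus slightly above their controls, by a margin that 1 library per condition cannot set against the spread between mice. After every cell had been thinned to 3000 UMIs, with 2639, 3057, 4474 and 4637 shallower cells left out, the shares were 1.32, 1.32, 1.62 and 1.28%, and the log2 ratio was -0.0048 for SAR131675 and 0.34 for LNR. At all UMIs, the SAR131675 ratio was 0.57 with 3 of 5 markers required, 0.46 without Wif1 and 0.52 without Crabp1 in the rule, 0.080 without cells over 1% of UMIs in genes of other classes and -0.17 without cells that held at least 2 markers of another class. The LNR ratio was 0.19 with 3 of 5 markers, 0.15 without cells over 1% and 0.088 without cells of at least 2 such markers. The SAR131675 ratio thus changed in size and sign with the rule, the depth and the cells left out, and the LNR ratio in size alone over these settings. Of the 14430 cells of the gate, members were 20.6% (19.1 to 22.1), 16.7% (15.3 to 18.3), 8.996% (8.20 to 9.84) and 8.27% (7.48 to 9.12), and after thinning 12.7, 11.2, 7.08 and 6.07%. This share was higher in the SAR131675 experiment than in the LNR experiment, both at all UMIs and after thinning. The gate held 2776, 2402, 4802 and 4450 of 29076, 24030, 19827 and 20669 kept cells, so its own share also differed between experiments. The cause was not tested.

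**Figure D4:**
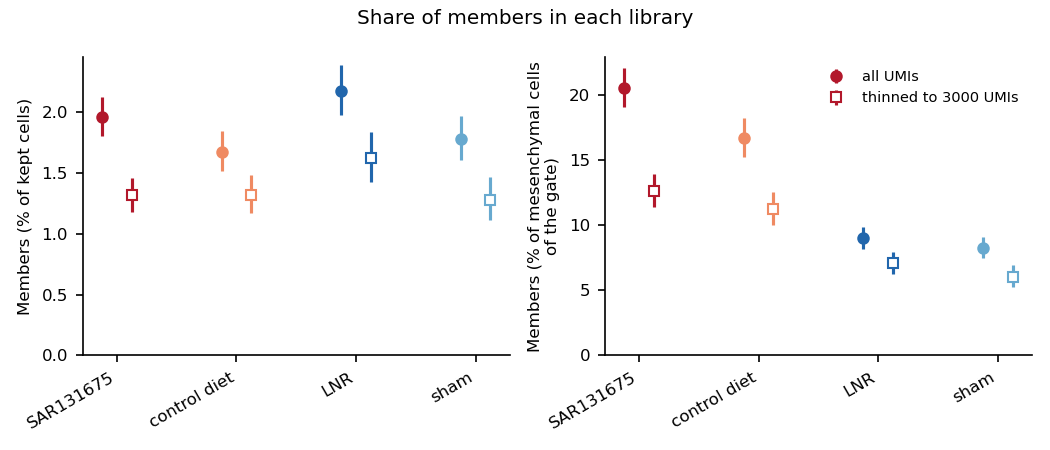
Members as a percent of kept cells (left) and of the mesenchymal cells of the gate (right) in each library, with all UMIs (filled circles) and after thinning to 3000 UMIs per cell (open squares), and Clopper-Pearson 95% bars. The 1.96% and 1.67% of SAR131675 and control diet become 1.32% in both after thinning.

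Within members, 9458 genes had at least 100 UMIs in SAR131675 and control diet together, and 98 (1.04%) were at least 2-fold higher and 46 (0.486%) at least 2-fold lower with SAR131675. These counts were 36 and 16 after thinning to 3000 UMIs, the genes higher were 27 without cells that held at least 2 markers of another class and 65 without Crabp1 in the rule, and the genes lower were 92 when barcodes had no upper limit on size. The limit of 100 UMIs was kept in each setting, so these counts are not shares of the 9458 genes. The median log2 ratio of all genes tested was 0.01. The rule's markers were not past this limit, as Wif1 was at 1406 against 2220.2 CPM (log2 -0.66), Corin at 149 against 89.8 CPM (log2 0.73), Alx4 at 73.7 against 51.8 CPM (log2 0.51) and Rspo4 at 68.3 against 72.1 CPM (log2 -0.08). Of 19 papilla genes tested, Hhip, Fgf7 and Alpl were at least 2-fold higher and none lower (list median 0.56). Hhip was at 389.8 against 189 CPM (log2 1.04), Fgf7, a growth factor for keratinocytes, at 484 against 241 CPM (log2 1.00) and Alpl at 77.6 against 35.8 CPM (log2 1.11). Alpl is also on the osteoblast list, of which Bglap, Bglap2 and Ibsp were higher as well. Members of the SAR131675 library also held more Corin or Alx4 cells, so the same genes were compared within that kind of member. There Hhip was at 509.7 against 310.3 CPM (log2 0.71), Fgf7 at 707 against 376 CPM (log2 0.91) and Alpl at 63.4 against 37.4 CPM (log2 0.75), all under 2-fold. Sfrp2, a secreted Wnt antagonist, was at 454 against 112 CPM (log2 2.02), and at 189.7 against 96.1 CPM (log2 0.98) in Corin or Alx4 members and 405 against 123 CPM (log2 1.71) in Rspo4 members. Fst was at 332 against 161 CPM (log2 1.05), with 459 against 208 CPM (log2 1.14) in Corin or Alx4 members and 127 against 125 CPM (log2 0.02) in Rspo4 members. Fst was thus over 2-fold apart in the Corin or Alx4 members and about level in the Rspo4 members, and the difference between them was not tested. The BMP pseudoreceptor Bambi was at 52.2 against 19.96 CPM (log2 1.38), and the FGF feedback inhibitor Spry4 at 9.61 against 21.6 CPM (log2 -1.17).

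Since 1.04% of all genes tested were at least 2-fold higher and 0.486% lower, a short list with no gene past the limit is near the share of all genes. None of 8 Wnt targets, 25 matrix genes, 7 BMP ligands, 10 nail and distal digit genes, 10 immediate early genes or 8 lymphangiogenic genes was past the limit, with list medians of -0.16, -0.11, -0.07, 0.04, -0.02 and 0.05. Ptch1 was at 267 against 267 CPM (log2 0.00), Axin2 at 78.1 against 83.7 CPM (log2 -0.10), Vegfc at 69.7 against 101 CPM (log2 -0.54) and Ccbe1 at 172 against 311 CPM (log2 -0.86). Lists with genes past the limit included 9 Wnt antagonists (Sfrp2 and Sfrp4 higher) and 7 BMP antagonists (Bambi and Fst higher). The chemokines Ccl2 and Ccl8 were higher as well, whereas Ccl2 was lower with LNR than with sham. Of the lists of other cell types, 4 of 6 osteoblast genes (Bglap, Bglap2, Ibsp and Alpl) were at least 2-fold higher and Spp1 lower, 4 of 10 keratinocyte genes were higher, and 2 of 3 synovial genes were lower, with list medians of 2.06, 0.38 and -1.23. The keratinocyte genes were Krt5, Krt15, Krt1 and Krt17, with Krt15 at 135 against 29.7 CPM in 128 and 36 members (log2 2.18) and Krt17 at 36.7 against 7.76 CPM in 82 and 18 (log2 2.22). Of these 4, Krt17 alone stayed at least 2-fold higher under each of 3 exclusions, of the cell with the most UMIs, of cells with over 1% of UMIs in genes of other classes and of called doublets. Krt15 was at log2 0.047 without cells over 1% and 1.33 without called doublets. The keratinocyte list summed to 1934 CPM in members with SAR131675 and 1749 CPM with control diet, which is less than 2-fold apart.

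The 8 genes with the largest excess with SAR131675 were Sst, Epyc, Bglap, Bglap2, Ibsp, Cfap69, Krt17 and Krt15. Sst, somatostatin, had 385 UMIs in 8 members, 39.0% of them in a single cell, against 0 with control diet, at least 80.9-fold higher. Epyc, a cartilage proteoglycan, had 138 UMIs in 6 members against 0, at least 29.0-fold higher, with 55.8% in a single cell. Bglap, osteocalcin, had 158 UMIs in 8 members against 7 in 3, with 74.1% in a single cell (log2 3.74), Bglap2 had 136 against 10, with 78.7% in a single cell (log2 3.03), and Ibsp was at 260.2 against 32.2 CPM in 12 and 6 members, with 67.8% in a single cell (log2 3.01). These differences thus rested on few cells, unlike that of Cfap69, a protein of motile cilia and flagella, at 32.7 against 6.65 CPM in 77 and 22 members (log2 2.27). The genes with the largest deficit included Rgs5, Wfdc17, Cntfr, Scg3, C1qc, Prg4 and Tll2. Cntfr, a receptor of ciliary neurotrophic factor, was at 23.1 against 100.1 CPM in 77 and 116 members (log2 -2.11). Scg3 was at 13.5 against 52.4 CPM in 38 and 51 (log2 -1.96). Rgs5, of pericytes, was at 5.24 against 28.00 CPM in 10 and 16 members (log2 -2.40). C1qc, of macrophages, was at 5.42 against 20.5 CPM in 9 and 3 (log2 -1.91) and Prg4 at 499 against 1846 CPM in 143 and 86 (log2 -1.89). With control diet, a single cell held 81.2, 67.6 and 43.0% of the UMIs of these 3 genes. C1qc did not stay at least 2-fold lower under each of the 3 exclusions given below. The Prg4 ratio turned to 2.35 with 3 of 5 markers required and to 0.17 without Wif1 in the rule, and that of Rgs5 became 0.35 when barcodes had no upper limit on size. A single cell held at least 25% of the UMIs for 20 of the 98 genes higher and 10 of the 46 lower, and 81 and 34 stayed at least 2-fold apart under each of 3 exclusions, of the top cell, of cells with over 1% of UMIs in genes of other classes and of called doublets.

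With LNR and sham, 6504 genes had at least 100 UMIs in members, of which 30 (0.461%) were at least 2-fold higher and 61 (0.938%) at least 2-fold lower with LNR. After thinning to 3000 UMIs 11 were higher and 11 lower. The limit of 100 UMIs was kept on these smaller sums, so the counts are not shares of the 6504 genes. With 3 of 5 markers required 51 were higher, and 39 were lower without Wif1, 40 without Crabp1 in the rule, 13 without cells that held at least 2 markers of another class and 38 without the top cell of each gene. The median log2 ratio of all genes tested was -0.01. Wif1 was at 1233 against 1245 CPM (log2 -0.01), Crabp1 at 1369 against 1070.3 CPM (log2 0.36), Rspo4 at 56.1 against 60.9 CPM (log2 -0.12) and Corin at 26.9 against 49.6 CPM (log2 -0.88). Of 13 papilla genes tested, Notum alone passed the limit (list median 0.20), at 32.2 against 13.7 CPM (log2 1.22). It was at 31.3 against 15.1 CPM (log2 1.00) in Corin or Alx4 members and 59.96 against 17.2 CPM (log2 1.72) in Rspo4 members. Sfrp2 was lower, at 441 against 1141 CPM (log2 -1.37), with 213 against 823 CPM (log2 -1.95) in Corin or Alx4 members and 589 against 1474 CPM (log2 -1.32) in Rspo4 members. Sfrp2 thus ran in opposite directions in the experiments, higher with SAR131675 and lower with LNR, in both kinds of member. None of 6 Wnt targets, 25 matrix genes, 6 BMP ligands, 9 nail and distal digit genes or 7 lymphangiogenic genes was past the limit, with list medians of 0.15, 0.05, 0.11, 0.05 and -0.20. The 10 immediate early genes had a median of 0.70, with none past the limit, as for Egr1 at 1273 against 727 CPM (log2 0.81) and Fosb at 613 against 355 CPM (log2 0.79). As only 0.461% of all genes tested were higher and 0.938% lower, these lists too are near the share of all genes.

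Genes of other cell types were past the limit in both directions between LNR and sham. Of 6 osteoblast genes tested, Ibsp and Spp1 were higher and Bglap and Bglap2 lower (list median -0.44), with Bglap at 42.5 against 117 CPM (log2 -1.46) and Bglap2 at 28.9 against 117 CPM (log2 -2.01). Bglap and Bglap2 were thus higher with SAR131675 and lower with LNR, and Spp1 the reverse. Prg4 was higher of 4 synovial genes, at 4682 against 2165 CPM (log2 1.11), Snorc of 4 chondrocyte genes (log2 2.42) and Krt6a of 11 keratinocyte genes (log2 2.03), with list medians of 0.82, 0.39 and -0.07. Fabp4 was lower of 2 adipocyte genes (log2 -3.52) and Cd74 of 4 immune genes (log2 -2.56), with list medians of -1.83 and -0.43.

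The 8 genes with the largest excess with LNR were Msmp, Spink12, Ccl4, Spink6, Krt16, Cytl1, Spp1 and Cxcl2, and the 8 with the largest deficit were Camp, Krt25, Krt71, Ngp, Serpina3j, Far2, Cidea and Mmp9. Msmp had 189 UMIs in 3 members against 0, at least 51.8-fold higher. Spink12 (log2 6.74) and Spink6 (log2 5.63), protease inhibitors, and Krt16 (log2 4.76), a keratin of stressed epidermis, stood in 6 to 10 members with LNR, with 48.6 to 77.1% of their UMIs in a single cell. Cytl1, of cartilage, was at 389 against 31.1 CPM in 15 and 11 members (log2 3.64), Spp1, osteopontin, at 455 against 49.2 CPM with 82.2% in a single cell (log2 3.20), and the neutrophil attractant Cxcl2 at 113 against 17.7 CPM in 19 and 13 members (log2 2.66). Of the genes lower, Camp and Ngp, of neutrophil granules, had 2 and 4 UMIs with LNR against 138 and 155 with sham. Krt25 and Krt71, of the inner root sheath of hair, had 2 UMIs each with LNR against 126 and 117. Between 82.9 and 96.8% of the sham UMIs of these 4 stood in a single cell. Serpina3j (log2 -4.51), Far2 (log2 -4.18), Cidea (log2 -4.03) and Mmp9 (log2 -4.00) had 47.4 to 84.8%. A single cell held at least 25% of the UMIs for 14 of the 30 genes higher and 40 of the 61 lower, and 18 and 37 stayed at least 2-fold apart under the same 3 exclusions. Most of the leading differences between LNR and sham thus stood in few cells. Without cells over 1% of UMIs in genes of other classes, Spp1 was at log2 4.15 and Cxcl2 at 3.46.

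Of 6397 genes tested in both experiments, 3 were at least 2-fold higher in both treated libraries, 2 lower in both and 10 apart in opposite directions. By the weaker ratio, the 5 leading genes that were higher in both were Ibsp (log2 3.01 with SAR131675 and 2.24 with LNR), Mmp3 (1.47 and 1.08), Chad (1.02 and 1.92), Plk2 (1.15 and 0.99) and Krt17 (2.22 and 0.94). With SAR131675, Ibsp turned to -3.24 without Crabp1 in the rule and Chad to -0.036 as a mean over cells. Within Corin or Alx4 members of the SAR131675 experiment, Ibsp was at 7.12 against 72.6 CPM (log2 -3.32) and Chad at 91.1 against 92.4 CPM (log2 -0.02), so neither was higher there with SAR131675. Over all members, Ibsp and Chad stayed past the limit in both experiments under the 3 exclusions, whereas Mmp3 with LNR was at 0.93 without cells over 1% of UMIs in genes of other classes. Plk2, a stress-induced kinase, was spread over many cells, at 97.5 against 43.8 CPM in 169 and 74 members of the SAR131675 experiment and 31.5 against 15.7 CPM in 54 and 36 of the LNR experiment. Mmp3, stromelysin, was at 40.4 against 14.4 CPM in 47 and 28 members and 516 against 245 CPM in 59 and 66. Those lower in both were Wfdc17 (-2.21 and -2.42), Elovl4 (-1.07 and -2.84), C4b (-0.998 and -1.37), Rgs5 (-2.40 and -0.97) and Sdr16c6 (-0.83 and -2.31). With SAR131675, Elovl4 turned to 0.069 with 3 of 5 markers, 0.091 with 2 UMIs per marker and 0.24 without cells over 1% of UMIs in genes of other classes, and Rgs5 turned as given above. With LNR, Elovl4 was at -4.35 and Sdr16c6 at -3.26 without the cells over 1%, and Elovl4 at -1.03 without the top cell. Wfdc17, a secreted protein of the WAP family, was at 21.7 against 101 CPM and 122 against 655 CPM. When cells with over 1% of their UMIs in genes of other classes were left out, its ratio was -0.38 with SAR131675 and turned to 1.08 with LNR.

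**Figure D5:**
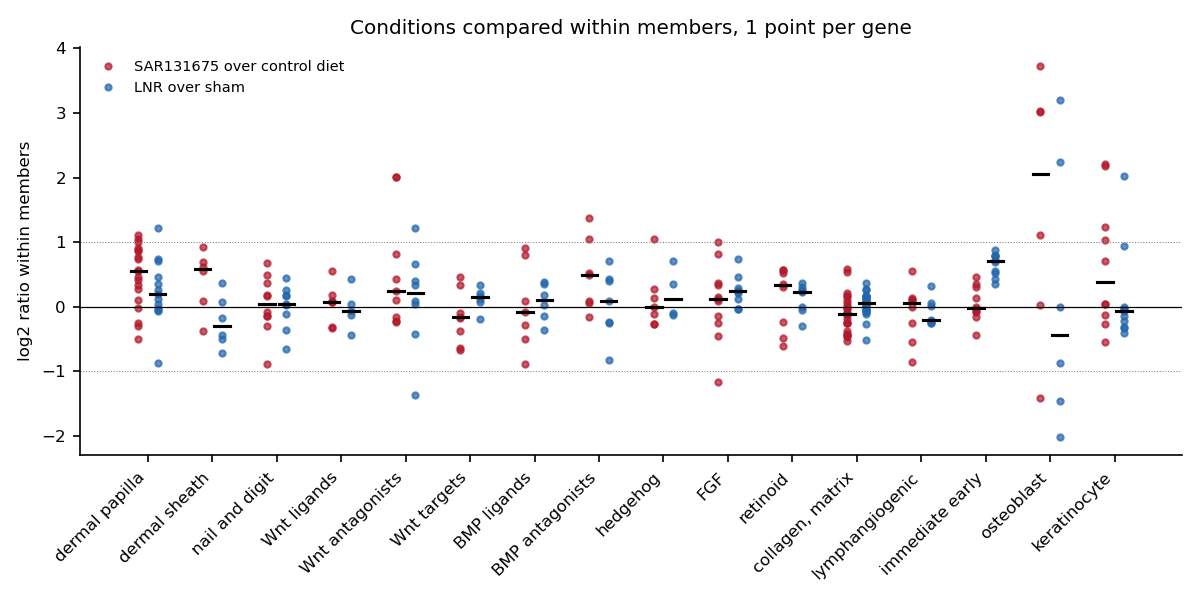
Log2 ratio within members (y axis) of SAR131675 over control diet and of LNR over sham for each tested gene of 16 lists, with black bars at list medians and dotted lines at 2-fold. Wnt target, BMP ligand and matrix genes lie within 2-fold in both experiments, while the osteoblast genes spread from below -1 to above 3.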

How the data were processed

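Single cells of the hindlimb digit tip were profiled by 10x 3′ sequencing in 4 libraries, each pooled from 10 mice. The authors deposited unnormalized counts of UMIs for each gene in each barcode, from Cell Ranger. The file headers give version 8.0.1 for SAR131675 and control diet and 6.1.2 for LNR and sham, whereas the submitters' processing notes name 6.1.2 and GRCm39, so the version differs between experiments but not within one.

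Barcodes with 200 to 5500 genes, at most 30000 UMIs and at most 10% mitochondrial UMIs were kept, after the limits the study's methods state for the LNR data. Members and gene lists were chosen with earlier results of these data known. UMIs were summed over cells per library, scaled to CPM and compared as log2 ratios with 0.5 UMI added to each sum, for genes with at least 100 UMIs. With 1 library per condition there is no replicate, cells are not replicates, and a limit of 2-fold was used without a test. Named genes were all rule and list genes, the 12 highest and 12 lowest against other mesenchymal cells by the weakest library, the 8 highest and 8 lowest in each experiment, the 5 leading shared genes in each direction and the 5 leading genes of each cluster. Examples from lists, and the split by Rspo4, were chosen after values were seen. Epidermal cells had at least 4 keratinocyte markers and no UMI of the fibroblast genes of the rule. Doublets were left in, and Scrublet calls were an alternative.

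Members were clustered with scanpy 1.11.5 (2000 variable genes, 20 components, 20 neighbours, Leiden resolution 0.5). Python 3.11.15, numpy 2.4.6, scipy 1.17.1, pandas 2.3.3, R 4.3.3 and edgeR 4.0.16 (TMM factors only) were used, and the scripts were tested on simulated data. Alternatives were other limits on cells and genes, other marker rules, thinning to 3000 UMIs, TMM scaling, 2 UMIs added, means over cells and leaving out each library. Some named genes are not reported here.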

Additional observations from a re-analysis of the deposited data

How the results depend on the processing

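No paired analysis was possible because each condition had 1 library of pooled mice, even where LNR and sham may share mice. Settings on cells with over 1% of their UMIs in genes of other classes, on the top cell of each gene, and on the split by Rspo4 were added after seeing the data. The log2 ratio of shares among kept cells, SAR131675 over control diet, was 0.57 with 3 of 5 markers, 0.46 without Wif1 and 0.52 without Crabp1 in the rule, and turned to -0.17 without cells holding 2 markers of another class and to -0.0048 after thinning. Among cells of the gate it was 0.63, 0.53, 0.59 and 0.020 in the first 4 of these settings. LNR over sham among kept cells was 0.088 without cells holding 2 markers of another class. Against other mesenchymal cells, the genes higher numbered 192 without those cells and 293 after thinning, and 482 to 551 with 1 library left out. The genes lower numbered 139, 203 and, with 2 UMIs added, 207, and 368 to 541 with 1 library left out (541 without sham). Genes higher with SAR131675 numbered 65 without Crabp1, 27 without cells of another class, 36 after thinning, 281 at 30 UMIs and 38 at 300 UMIs. Genes lower numbered 16 after thinning, 92 without upper limits, 138 at 30 UMIs and 22 at 300 UMIs. Genes higher with LNR numbered 51 with 3 of 5 markers, 11 after thinning, 122 at 30 UMIs and 13 at 300 UMIs. Genes lower numbered 39 without Wif1, 40 without Crabp1, 13 without cells of another class, 11 after thinning, 179 at 30 UMIs, 23 at 300 UMIs and 38 without the top cell. After thinning, 41 genes were higher with Rspo4 and 35 with Corin or Alx4. With 1 library left out these were 201 to 251 and 184 to 265. Clusters numbered 20 at resolution 1.0. With SAR131675, Prg4 turned to 2.35 with 3 of 5 markers and 0.17 without Wif1, Elovl4 to 0.069 with 3 of 5 markers, 0.091 with 2 UMIs per marker and 0.24 without cells over 1%, Ibsp to -3.24 without Crabp1, Chad to -0.036 as a mean over cells and Rgs5 to 0.35 without upper limits. With LNR, Wfdc17 turned to 1.08 without cells over 1%. Except where a setting itself leaves fewer cells or genes, the cause was not tested. Values of named genes under the settings were also set against those reported. Of the ratios against other mesenchymal cells, 413 moved by no more than their standard deviation over the 4 libraries. A further 111 moved by more, with none reversed. For SAR131675 over control diet, 246 ratios stayed within their counting interval, 50 moved beyond it and 8 reversed. For LNR over sham these were 269, 71 and 1. Of the levels in members 155 stayed within their counting interval and 165 moved. Ratios of genes with too few UMIs under a setting had no value, in 28, 114 and 153 cases for these 3 comparisons.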
